A study of Homo sapiens with 6 samples.

Results

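The genes described here are HLA-B, HLA-C, HLA-E, HLA-F, B2M, TAP1, TAP2, TAPBP and NLRC5, which make, load and regulate MHC class I. They were selected by gene symbol, and all 9 were found among the 16760 genes of the table and entered the test. RNA-seq was performed on H1975, a human lung adenocarcinoma cell line, with 3 libraries labelled YTHDC2 knockout and 3 labelled WT. YTHDC2 is an RNA helicase that binds m6A, and its gene was targeted with a CRISPR plasmid, with no mention of whether the knockout cells were 1 clone or a pool. Each value is in FPKM, the number of fragments per kilobase of gene and scaled to the fragments of the library, so that levels can be set side by side between genes.

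MHC class I molecules show peptides from inside the cell to CD8 T cells and natural killer cells. A heavy chain, encoded by an HLA gene, pairs with the invariant light chain beta-2 microglobulin (B2M) in the endoplasmic reticulum. The proteasome cuts proteins into peptides, the TAP1-TAP2 transporter pumps them into the endoplasmic reticulum, and tapasin (TAPBP) holds an empty heavy chain at the transporter until a peptide binds. NLRC5 is a transactivator that drives class I heavy chain promoters, and not those of every gene described here. Interferons raise most of these genes through factors such as IRF9 and IRF1. Lung tumour cells are known to lose class I in some patients, which hides them from T cells.

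The libraries held 32132736 to 33824967 fragments in YTHDC2 knockout and 27201555 to 30337712 in WT, as recovered from the steps between low FPKM values. YTHDC2 itself measured 7.82, 8.92 and 8.14 FPKM in the knockout libraries. In the WT libraries it measured 13.0, 17.1 and 201 FPKM, the last in WT replicate 3. The transcript was present in the knockout, with each value below the WT values. The gene did not pass the limma test used below (log2 fold change -2.09, 95% interval -5.2 to 1.02, adjusted p = 0.228). Its log2 fold change was -0.84 without WT replicate 3 (adjusted p = 0.0022). WT replicate 3 stood apart from the other WT libraries, so each gene described here is also given without it. Of 9 lung epithelial markers analysed, 4 averaged below 1 FPKM, and the sum of the list ran from 173.6 to 181.9 FPKM in knockout and from 145.0 to 158.2 FPKM in WT. EPCAM averaged 0.246 FPKM in knockout and 0.818 in WT, KRT19 averaged 0.0142 and 1.02, and KRT7 stayed at or below 0.259 FPKM in each library, so defining epithelial markers were near 1 FPKM or lower in cells labelled as lung adenocarcinoma. The epithelial keratins KRT8 and KRT18 were abundant, at 97.7 and 73.2 FPKM in knockout and 82.5 and 60.8 FPKM in WT, and CDH1 averaged 2.41 and 1.93 FPKM (markers are named after their values were seen). Blood cell markers summed to 2.35 to 2.81 FPKM in knockout and 3.67 to 4.06 FPKM in WT over 8 genes, with PTPRC at 0 in 5 of 6 libraries. Stromal and endothelial markers summed to 504.2 to 519.9 FPKM in knockout and 488.6 to 527.9 FPKM in WT over 10 genes, nearly all of it VIM, with 7 of the 10 below 1 FPKM on average. The part of these markers in the results below was not tested. The study's legend speaks of biological replicates, while the labels do not say that the libraries came from separate cultures. The p-values measure the spread between these libraries, which may in part be technical. In bulk RNA, fewer cells that express a gene and less of its RNA per cell cannot be told apart.

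Promoters of these genes are known to hold sites for interferon-regulated factors, and the stretches that carry them are shown because the genes below share such sites while their transcripts differed in direction. RefSeq promoters (GRCh38.p14, 250 bases before to 50 bases after the start) matched 7 of the 9 genes. Each line gives 60 bases on the strand of the gene, 5′ to 3′, and capitals mark a match, on either strand, to the core of an interferon-stimulated response element (GAAA, any 2 bases, GAAA) or to its shorter form (GAA, any 2 bases, GAAA). The shorter form was added after the HLA-B and HLA-C promoters had been read.
HLA-F, chr6:29723253-29723312, + strand: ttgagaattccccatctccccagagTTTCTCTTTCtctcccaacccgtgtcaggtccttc
HLA-C, chr6:31272210-31272269, - strand: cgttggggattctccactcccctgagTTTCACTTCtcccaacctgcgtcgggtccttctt
HLA-B, chr6:31357301-31357360, - strand: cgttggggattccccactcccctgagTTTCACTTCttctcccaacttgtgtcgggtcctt
TAP2, chr6:32838766-32838825, - strand: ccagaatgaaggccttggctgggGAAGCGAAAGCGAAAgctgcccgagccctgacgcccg
TAP1, chr6:32853801-32853860, - strand: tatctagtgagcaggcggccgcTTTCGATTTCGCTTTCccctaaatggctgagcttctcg
TAPBP, chr6:33314079-33314138, - strand: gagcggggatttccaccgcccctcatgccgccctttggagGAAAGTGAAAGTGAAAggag
B2M, chr15:44711351-44711410, + strand: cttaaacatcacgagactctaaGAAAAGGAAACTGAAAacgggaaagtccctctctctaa

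The core was present in 5 of the 7 promoters, those of HLA-F, TAP1, TAP2, TAPBP and B2M, and in 3.57% of 35116 promoters of the same length. In TAP1, TAPBP and B2M a pair of matches overlapped into 1 run, from -134 to -119 in TAP1, from -20 to -5 in TAPBP and from -144 to -129 in B2M, counted from the start. The shorter form was present in HLA-B (-155 to -147), HLA-C (-151 to -143) and TAP2, where it overlapped the core, and in 7.66% of all promoters. The kappa-B pattern (GGG, any 2 bases, TT, any base, CC) was found in HLA-B, TAP1, TAPBP and B2M, against 5.68% of all promoters, and the NF-Y box CCAAT in HLA-F, HLA-C, HLA-B, TAP1 and B2M, against 34.6%. The HLA-B and HLA-C stretches were alike around the capitals, and the kappa-B pattern matched upstream of them in HLA-B only. A match of letters describes a sequence and not a bound site.

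The genes did not move as a block after YTHDC2 knockout. NLRC5, HLA-B, B2M and TAP1 were lower in knockout and TAP2 was higher, at a limma p under 0.05 after adjustment across the 15441 genes tested, while HLA-C, HLA-E, HLA-F and TAPBP did not pass. At that threshold alone 26.2% of all genes were lower and 16.6% were higher, so 4 and 1 of these 9 genes are to be read against shares of that size. With a log2 fold change beyond 1 required as well, only NLRC5 was called lower and no member was called higher, where 1.99% of all genes were called lower and 0.732% higher. Every knockout value lay below every WT value for HLA-B, B2M, TAP1, TAPBP and NLRC5 (33.1% of all genes), and above every WT value for TAP2 (20.7% of all genes). The median log2 fold change was -0.27 over the 9 genes and -0.09 over all genes tested. Without WT replicate 3 no member was called lower (1.99% of all genes), 4 were lower at the adjusted p alone (21.3% of all genes) and 2, TAP2 and HLA-E, were higher (14.8% of all genes).

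Among the heavy chains, HLA-B was lower in knockout, and HLA-C, the most abundant, did not pass the test. Of these genes B2M lies on chromosome 15 and NLRC5 on chromosome 16, and the rest lie in the MHC on chromosome 6, where GENCODE gives HLA-B a long model (31269491 to 31357188) that overlaps HLA-C (31268749 to 31272130) on the minus strand. HLA-B, a classical heavy chain that presents peptides to CD8 T cells, measured 46.9, 50.9 and 49.1 FPKM in knockout and 64.4, 55.1 and 67.9 FPKM in WT. The groups did not overlap, although WT replicate 2 lay close to knockout replicate 2. The means were 49.0 ± 2.03 and 62.5 ± 6.63 FPKM (SD, n = 3), and the log2 fold change was -0.35 (standard error, SE, 0.08, adjusted p = 0.00628), and -0.28 without WT replicate 3 (adjusted p = 0.0229). The values rested on 2453 to 2606 fragments in a knockout library and 2595 to 3015 in a WT library.

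HLA-C, a classical heavy chain that is also the main ligand of inhibitory receptors on natural killer cells, measured 214, 216 and 224 FPKM in knockout and 223, 194 and 233 FPKM in WT. The knockout values lay inside the range of the WT values. The log2 fold change was 0.01 (95% interval -0.14 to 0.16, adjusted p = 0.896), on 9169 to 11308 fragments per library. Its sign turned without knockout replicate 3 (-0.01) and without WT replicate 2 (-0.07), and a correction for GC content gave -0.20 (adjusted p = 0.0218). Without WT replicate 3 it was 0.07, and no alternative took it outside -0.20 to 0.08.

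HLA-E, a nonclassical heavy chain that presents leader peptides of other class I chains to the NKG2A receptor, measured 48.7, 48.9 and 46.8 FPKM in knockout and 41.0, 37.0 and 46.9 FPKM in WT. The groups overlapped through WT replicate 3, which was level with knockout replicate 3. The log2 fold change was 0.22 (SE 0.08, adjusted p = 0.0540), and leaving out WT replicate 3 gave 0.30, which passed (adjusted p = 0.00763). HLA-F, a nonclassical heavy chain found mostly inside cells, measured 4.16, 4.79 and 4.12 FPKM in knockout and 3.25, 4.03 and 4.58 FPKM in WT. The values were interleaved, and the log2 fold change of 0.15 (95% interval -0.15 to 0.44) did not pass (adjusted p = 0.403), nor did 0.26 without WT replicate 3 (adjusted p = 0.152). Part of its gene model (29722775 to 29738528) overlaps the antisense gene HLA-F-AS1 (29726601 to 29749049), whose fragments cannot be told apart from it without a strand setting.

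The 4 heavy chains described here summed to 320 ± 5.09 FPKM in knockout against 325 ± 31.99 in WT (SD, n = 3), with overlapping values. Within that sum, HLA-B took 15.3% ± 0.494 in knockout and 19.2% ± 0.20 in WT (SD, n = 3), and every knockout library was lower. HLA-C took 68.3% ± 0.855 and 66.8% ± 0.563, and HLA-E took 15.1% ± 0.548 and 12.8% ± 0.468, in both with every knockout library higher. After GC correction HLA-B (15.6% against 18.9%) and HLA-E (15.7% against 12.3%) still did not overlap, the HLA-C shares overlapped (67.3% against 67.6%), and the summed level was lower in every knockout library, at 301 ± 5.47 FPKM against 345 ± 30.2 FPKM (SD, n = 3). The shares of HLA-B varied less among WT libraries than its levels did. HLA-E was 0.953 to 1.04 times HLA-B in knockout and 0.637 to 0.690 times in WT, and HLA-C was 4.25 to 4.58 times HLA-B in knockout and 3.44 to 3.52 times in WT. These ratios were taken within a library, and no test was run on them. How far the reads of these polymorphic and similar genes were assigned to the right gene is not known, so values of single HLA genes are uncertain.

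The light chain was lower in knockout, and did not pass the test after correction for GC content. B2M, which each heavy chain needs to reach the cell surface, measured 158, 158 and 163 FPKM in knockout and 183, 187 and 224 FPKM in WT. The groups did not overlap, and WT replicate 3 was the highest. The means were 160 ± 3.09 and 198.0 ± 22.4 FPKM (SD, n = 3), with a log2 fold change of -0.30 (SE 0.07, adjusted p = 0.00856), and of -0.21 without WT replicate 3 (adjusted p = 0.00788). B2M has a GC content of 40.6%, and the 1283 genes within 1 percentage point of it had a median log2 fold change of -0.29, as low as its own. After the GC correction its log2 fold change was -0.02 (adjusted p = 0.862). The heavy chain sum was 1.98 to 2.03 times B2M in knockout and 1.55 to 1.81 times in WT, a ratio of 2.00 ± 0.0249 against 1.65 ± 0.143 (SD, n = 3) with no overlap. With values corrected for GC content, a step chosen after seeing the data, the ratio turned, to 1.71 ± 0.0833 in knockout against 1.93 ± 0.0455 in WT (SD, n = 3), again with no overlap, so its direction depends on that correction.

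The transporter subunits moved in opposite directions. TAP1 measured 8.90, 9.37 and 9.05 FPKM in knockout and 11.7, 10.5 and 18.0 FPKM in WT. WT replicate 3 was 1.62 times the mean of the other WT libraries, and all knockout values were below the lowest WT value. The log2 fold change of TAP1 was -0.51 (SE 0.17, adjusted p = 0.0348). Without WT replicate 3 it was -0.28 (adjusted p = 0.0274), and without knockout replicate 1, 2 or 3 in turn it no longer passed (log2 fold changes -0.50, -0.54 and -0.51, adjusted p = 0.0887, 0.0636 and 0.0891).

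TAP2, the partner without which TAP1 does not transport peptides, measured 9.96, 10.4 and 9.71 FPKM in knockout and 7.20, 7.46 and 7.92 FPKM in WT. No knockout library overlapped a WT library, and the WT libraries lay close together. The log2 fold change was 0.41 (SE 0.07, adjusted p = 0.00177), and 0.44 without WT replicate 3 (adjusted p = 0.00360). The ratio TAP1 / TAP2 came to 0.894, 0.905 and 0.933 in knockout against 1.63, 1.41 and 2.27 in WT. In FPKM, TAP1 was the higher of the pair in each WT library, and TAP2 in each knockout library. That order depends on the gene lengths used, from an annotation that was not given. By fragments TAP1 had 1022, 917 and 1413 in the WT libraries and TAP2 had 1345, 1402 and 1336. In the GENCODE annotation of GRCh38 both lie on the minus strand of chromosome 6, TAP1 from 32845209 to 32853978 and TAP2 from 32821833 to 32838780. The gene model of PSMB9 on the plus strand (32844136 to 32859585) spans TAP1, and with no strand setting stated, their fragments in the overlap cannot be told apart.

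TAPBP, the tapasin that bridges heavy chain and transporter, measured 4.70, 4.38 and 4.64 FPKM in knockout and 4.90, 5.39 and 6.46 FPKM in WT. All knockout values were lower, with knockout replicate 1 close to WT replicate 1. The log2 fold change of -0.27 (95% interval -0.52 to -0.03) did not pass (adjusted p = 0.0692), and it passed at -0.36 without WT replicate 1 (adjusted p = 0.0173). Without WT replicate 3 it was -0.17 (adjusted p = 0.208). The rest of the loading and trimming genes were mixed. Of 15 tested, 6 were lower (26.2% of all genes) and 2 were higher (16.6% of all genes) at the adjusted p alone. None was called with the fold threshold, and the median log2 fold change was -0.16. With GC correction PDIA3 and LNPEP no longer passed as lower (adjusted p = 0.627 and 0.0708), and BCAP31 did (0.0116). CANX and NPEPPS then passed as higher (adjusted p = 0.00201 and 0.0110). These genes are named with their values known. CALR, the chaperone that joins tapasin in the loading complex, had 402 FPKM in knockout and 425 in WT (log2 fold change -0.08, adjusted p = 0.190). PRKCSH, a subunit of the glucosidase that trims glycans before CALR binds, had 230 and 159 FPKM (log2 fold change 0.54, adjusted p = 2.14e-04). GANAB, another subunit of that glucosidase, went the other way, at 183 and 205 FPKM (log2 fold change -0.16, adjusted p = 0.0244). It was chosen after its values were seen. ERAP1, the aminopeptidase that trims peptides to class I length, was low at 0.669 ± 0.0188 FPKM in knockout against 1.16 ± 0.0762 in WT (SD, n = 3; log2 fold change -0.71, adjusted p = 0.00322), and was chosen after its values were seen.

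Proteins enter the pathway through the proteasome, whose immune forms replace the standard catalytic subunits under interferon. Of 5 genes of the immunoproteasome and its activator, 1 was called lower (1.99% of all genes). The other 4 did not pass, and the median log2 fold change was -0.16. The gene called was PSMB9, an immune catalytic subunit, at 0.575, 0.944 and 0.575 FPKM in knockout and 1.26, 3.17 and 3.82 FPKM in WT. The groups did not overlap, and WT replicate 1 was the lowest of the WT libraries. Its log2 fold change was -1.73 (SE 0.36, adjusted p = 0.00479), and -1.43 without WT replicate 3 (adjusted p = 0.0201). PSME2 and PSME1, the more abundant activator subunits, had log2 fold changes of 0.03 and 0.19 (adjusted p = 0.730 and 0.247), and without WT replicate 3 PSME1 had 0.35 and passed as higher (adjusted p = 0.00571).

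NLRC5 had the lowest level and the largest fold change of the 9 genes. It measured 0.350, 0.461 and 0.334 FPKM in knockout and 0.708, 0.765 and 1.59 FPKM in WT. All knockout libraries lay below all WT libraries, and WT replicate 3 was 2.16 times the mean of the other WT libraries. The means were 0.382 ± 0.0689 and 1.02 ± 0.492 FPKM (SD, n = 3), on 306 fragments over the knockout libraries and 711 over the WT libraries. The log2 fold change was -1.14 (SE 0.28, 95% interval -1.78 to -0.51, adjusted p = 0.0103), and leaving out WT replicate 3 gave -0.81 (adjusted p = 0.0180), which ends the call through the fold threshold. Fold changes here are of FPKM + 0.1, which understates the change of a gene this low. As a ratio of mean FPKM, knockout was 0.374 of WT, and 0.518 of the mean of WT replicates 1 and 2.

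**Figure D1:**
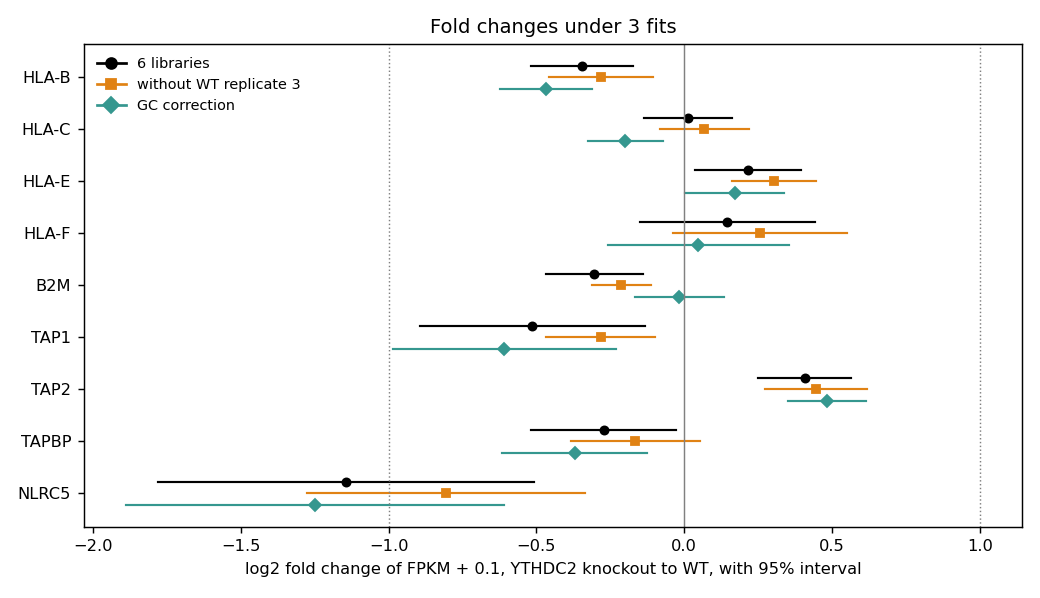
Fold change of FPKM + 0.1 on the log2 scale (x axis, knockout to WT) with 95% intervals for each gene over 6 libraries (black), without WT replicate 3 (orange) and after GC correction (green), with dotted lines at -1 and 1. NLRC5 passes -1 in black and green and not in orange, TAP2 stays above 0 in each fit, and the green interval of B2M crosses 0.

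The factors that act with NLRC5 or on it were also followed. Of 16 regulators of class I promoters, 2 were called lower (1.99% of all genes) and none higher (0.732%). At the adjusted p alone 7 were lower (26.2% of all genes) and 1 was higher (16.6%), with a median log2 fold change of -0.30. IRF9, the DNA-binding part of a complex that forms under type I interferon, was 1 of those called. It measured 2.78, 3.37 and 2.77 FPKM in knockout and 16.5, 16.6 and 25.3 FPKM in WT. The knockout libraries were alike and far below the WT libraries, of which WT replicate 3 was again the highest. Its log2 fold change was -2.65 (SE 0.16, adjusted p = 1.90e-05), and -2.44 without WT replicate 3 (adjusted p = 3.51e-05). RELA, the NF-kappa-B subunit that binds the kappa-B site of class I promoters, had a log2 fold change of -0.38 (adjusted p = 0.00305), and RFX5, a DNA-binding subunit of the complex that holds NLRC5 on promoters, had 0.28 (adjusted p = 0.00212). IRF1, another interferon-induced activator of these promoters, was chosen after its values were seen. It measured 2.64, 2.39 and 2.64 FPKM in knockout and 2.25, 1.81 and 2.93 FPKM in WT, values that overlapped (log2 fold change 0.15, adjusted p = 0.492).

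WT replicate 3 held the highest WT value of each of the 9 genes, as it did for 35.7% of all genes tested. Its ratio to the mean of the other WT libraries had a median of 0.27 on the log2 scale over the 9 genes and of 0.02 over all genes. The ratio was lowest for TAP2 (1.08), HLA-C (1.12) and HLA-B (1.14) and highest for TAP1 (1.62) and NLRC5 (2.16). YTHDC2 and IRF9 were also highest in that library. The genes whose profile over the 6 libraries was most like that of NLRC5, by the root mean square difference of centred log2 values among 11121 genes of at least 1 FPKM on average, were PLSCR1 (0.11), TRIM21 (0.12) and UBE2L6 (0.17). PLSCR1 measured 12.0, 12.2 and 10.3 FPKM in knockout and 21.9, 22.9 and 41.9 FPKM in WT. For TAP1 they were USP18 (0.05), at 10.7 to 11.6 FPKM in knockout and 12.1 to 20.6 FPKM in WT, and PML (0.06), at 6.56 to 7.27 FPKM and 7.49 to 13.1 FPKM. The third gene nearest to TAP1 has a near-identical copy, so its value is uncertain and not given.

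In order of level, the knockout libraries ran from HLA-C at 218 FPKM through B2M (160), HLA-B (49.0), HLA-E (48.1), TAP2 (10.01), TAP1 (9.11), TAPBP (4.57) and HLA-F (4.36) to NLRC5 (0.382). HLA-B and HLA-E overlapped there, as did TAPBP and HLA-F, and the other neighbours lay apart. In WT the order was HLA-C (217), B2M (198.0), HLA-B (62.5), HLA-E (41.6), TAP1 (13.4), TAP2 (7.52), TAPBP (5.58), HLA-F (3.96) and NLRC5 (1.02), in which only HLA-C and B2M overlapped.

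Fold changes of all genes followed the GC content of their longest transcript, with medians that climbed from -0.35 (log2) for the lowest of 10 equal classes by GC content to 0.25 for the highest. Apart from B2M and TAP2 (49.1%), the members have a GC content of 54.8% to 62.7%, where the genes within 1 percentage point had medians from 0.05 to 0.19. Set against genes of like GC content, HLA-B, TAP1, TAPBP and NLRC5 were thus further below than they were against 0. HLA-C, at 62.7% GC, was also under the median of 0.19 of its 704 neighbours in GC content, with HLA-E and HLA-F above theirs. After the correction, HLA-B had a log2 fold change of -0.47 (adjusted p = 9.30e-04), TAP1 -0.61 (adjusted p = 0.0187), TAPBP -0.37 (adjusted p = 0.0244), TAP2 0.48 (adjusted p = 3.76e-04) and NLRC5 -1.25 (adjusted p = 0.00796).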

How the data were processed

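RNA-seq of H1975 cells, 3 YTHDC2 knockout and 3 WT libraries, was analysed from 1 table in which the authors deposited FPKM values of 16760 genes, made on GRCh38.p13. The aligner, counter, gene annotation, strandedness, filters and handling of alternate MHC haplotypes were not given in the sources used here. Genotypes came from the labels, and 0 columns were left unused. Whole fragments were recovered from FPKM steps for 16760 genes (tolerance 0.01 of a whole number). In simulated data 93.8% of genes were recovered exactly, and 99.98% exactly or divided by a common factor. Fragment numbers of single genes and library totals may thus be understated.

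FPKM values are not counts. They were tested with limma 3.58.1 (R 4.3.3), trend and robust moderation, on log2(FPKM + 0.1), for the 15441 genes above 0 in at least 3 libraries, and p-values were adjusted by Benjamini-Hochberg across these genes. Calls needed an adjusted p below 0.05 with a log2 fold change past 1 in size, thresholds taken from the study. The script was tested on simulated data. Tables used Python 3.11.15, numpy 2.4.6 and pandas 2.3.3. GC content came from GENCODE, with 99.1% of genes matched. For the GC correction, each gene's log2(FPKM + 0.1) was taken as a deviation from its mean over the 6 libraries. A lowess fit of these deviations against GC content was subtracted in each library. Promoters came from RefSeq (GRCh38.p14).

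The genes described and the lists of other genes were chosen with earlier results of these data known. All 9 genes are named, then up to 4 called genes per list and up to 2 with the highest mean, then the 3 profiles most like NLRC5 and TAP1. Genes outside this rule are marked, and the values of some genes of the lists are not reported here. Alternatives were other pseudocounts, filters and scalings, limma without moderation by trend, limma voom on fragments, GC correction (added for ratios after seeing the data), a replicate block and leaving out each library.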

Additional observations from a re-analysis of the deposited data

How the results depend on the processing

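HLA-B and TAP2 kept their direction and their side of an adjusted p of 0.05 under 17 of 17 alternatives (limma log2 fold changes from -0.47 to -0.28 and from 0.35 to 0.51), and NLRC5 did under 16 of 16 (-1.34 to -0.52), having a mean of 0.701 FPKM and so no value in the fit of genes of at least 1 FPKM. TAP1 lost the adjusted p under 8 alternatives (0.0529 to 0.0913), HLA-E gained it under 6, TAPBP under 4, and B2M lost it with GC correction. HLA-C turned to -0.056 with quantile normalization, -0.052 with a common total and -0.20 with GC correction, and ran from -0.066 (without WT replicate 2) to 0.068 (without WT replicate 3) when each library was left out. Members called lower were 1, and 0 with a pseudocount of 1, a mean of at least 1 FPKM or quantile normalization, 4 by adjusted p alone, and 0 to 1 when each library was left out, 0 without WT replicate 3. Members called higher were 0, and 1 by adjusted p alone. Members higher at the adjusted p alone were 1, and 2 with a pseudocount of 0.01, a mean of at least 1 FPKM, median scaling, limma voom or the replicate block, and 1 to 2 when each library was left out.

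All genes called lower were 307, and 505 with a pseudocount of 0.01, 69 with a pseudocount of 1, 126 with a mean of at least 1 FPKM, 543 with a common total, 479 with limma voom and 4044 by adjusted p alone. All genes called higher were 113, and 184 with a pseudocount of 0.01, 29 with 1, 195 with quantile normalization and 2563 by adjusted p alone. Median scaling gave 264 lower and 147 higher, and quantile normalization 206 lower and 195 higher. In the 6 lists of other genes, 3 were called lower (15 by adjusted p alone) and 0 higher (1, HLA-DQB1, with GC correction, 13 by adjusted p alone), and lower at the adjusted p alone were 28 with a common total. The ratio of heavy chains to B2M moved from 2.00 to 1.71 in knockout and from 1.65 to 1.93 in WT with GC correction, which turns its direction. The cause of the other shifts was not tested.

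Knockout and WT libraries of the same number correlated at 0.21, 0.12 and -0.06 in their deviations from the group means. Libraries of unlike number ran from -0.27 to 0.17. Deviations within a group depend on each other, so these values cannot exclude a pairing, and the main fit used none. With the replicate block 309 genes were called lower and 112 higher. Of the 9 genes depth limits NLRC5 most, with 87 to 350 fragments per library, and PSMB9 had 19 to 107. With 3 libraries a group, spread is poorly known, and neither protein nor surface class I was analysed here.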

Other observations

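Class II genes, which present peptides from outside the cell, are mostly silent in epithelial cells without interferon gamma. In these libraries, however, only 3 of the 12 listed averaged below 1 FPKM. Of 12 tested, 1 was higher at the adjusted p alone (16.6% of all genes) and none was lower (26.2%). The median log2 fold change was 0.03. HLA-DQB1, a class II beta chain, measured 17.4, 17.0 and 18.1 FPKM in YTHDC2 knockout and 9.34, 9.31 and 10.2 FPKM in WT. The groups were far apart and tight (log2 fold change 0.86, SE 0.07, adjusted p = 4.57e-05, and 0.90 without WT replicate 3). HLA-DRB1, another class II beta chain at a like level, had 17.8 ± 2.17 FPKM in knockout against 16.9 ± 2.40 in WT (SD, n = 3, log2 fold change 0.07, adjusted p = 0.637). CIITA, the relative of NLRC5 that drives class II, was below 0.1 FPKM on average in both groups and is named here with its values known. HLA-DQA1, a DQ alpha chain also named with its values known, averaged 0.547 FPKM in knockout and 0.533 in WT. Its log2 fold change was 0.19 (adjusted p = 0.738). How far the reads of these similar class II genes were assigned to the right gene is not known, so the HLA-DQB1 values are uncertain.

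Among 11 tested genes of other class I and class I-like chains, 3 were higher at the adjusted p alone (16.6% of all genes). None was lower (26.2% of all genes). FCGRT, the heavy chain of the neonatal Fc receptor, which also pairs with B2M, had 24.3 ± 1.30 FPKM in knockout against 15.6 ± 1.59 in WT (SD, n = 3, log2 fold change 0.64, adjusted p = 4.33e-04). PROCR, the endothelial protein C receptor, which has a class I-like fold, had 57.2 ± 1.54 and 43.9 ± 3.39 FPKM (SD, n = 3, log2 fold change 0.38, adjusted p = 0.00139). Of 17 genes that lie in the MHC region and serve other functions, 6 were higher at the adjusted p alone (16.6% of all genes). In the other direction 1 was lower (26.2% of all genes), and the median log2 fold change was 0.02. DDX39B, an RNA helicase of mRNA export, was the lower one (log2 fold change -0.33, adjusted p = 0.00144), and RPS18, a ribosomal protein, had 0.05 (adjusted p = 0.30).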
